A study of Mus musculus with 24 samples.

Results

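Marcks and Marcksl1, the MARCKS family of membrane-bound proteins, were followed with 8 genes of the actin cytoskeleton in RAW264.7, a mouse cell line with macrophage properties. The members were taken by the gene symbol in the probe table of the array, and they were chosen on the basis of earlier results of these arrays, with Marcksl1 picked from them for its rise. Of the 10 genes, 9 were among the 13529 gene symbols of that table. Actg1, the gamma-actin gene, had none named and is not analysed here. The table named 19969 probes, fewer than the array holds, so a member's probe without a name in it would be missed. The symbols named 24 of the 45281 probes on the array, and 23 of them were detected. The third Abi1 probe was detected on 0 arrays. Of the 23 probes, 20 were detected on all 24 arrays, and the exceptions were Actb probes 4 and 5, on 20 and 19 arrays, and Capzb probe 4, on 23. A further probe, listed under the older symbol Mlp, carried the accession of Marcksl1. It is shown as Marcksl1 probe 3 and was kept out of all counts. Probes of a gene are numbered by falling mean signal, which says nothing of transcript level, since the brightness of different probes is not comparable.

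MARCKS proteins sit on the inner face of the plasma membrane, where they bind actin filaments, calmodulin and the phosphoinositide PIP2 and are released when protein kinase C phosphorylates them. Around them, profilin and cofilin feed and cut filaments, the WAVE complex starts branched growth, capping protein ends it, and alpha-actinin ties filaments into bundles. In macrophages this machinery drives ruffling, migration and phagocytosis.

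The groups were LPS at 100 ng/ml, a lipopolysaccharide of Salmonella minnesota that acts on TLR4, P3C at 1 μM, the lipopeptide Pam3CSK4 that acts on TLR2, R848 at 1 μM, a small molecule that acts on TLR7, and untreated cells, each taken at 1, 2 and 4 h. Each of the 12 groups had 2 arrays, A and B, described in the methods as biological duplicates of the one cell line, and each ligand was given at 1 dose. The median signal was 95.8 to 115 per array, 12299 to 13917 probes per array passed detection, and the arrays of a group correlated at 0.977 to 0.995. The arrays lay on 10 slides. No slide held a treated array with an untreated array of its time, so slide and treatment cannot be told apart there within a slide. Of 9 macrophage markers, 6 (Adgre1, Csf1r, Mpeg1, Lyz2, Cd68 and Cd14) were detected on all 24 arrays, while Cd3e, Ms4a1, Col1a2 and Pdgfra, markers of T cells, B cells and fibroblasts, were detected on 0. The epithelial marker Krt8 passed detection on 5 arrays, at a log2 signal of 6.97 or less. In such bulk samples fewer cells with a transcript and less of it per cell cannot be told apart. Values below are log2 signals after quantile normalization of all arrays, and a difference of 1 is a factor of 2. A probe was called in a comparison at an adjusted p under 0.05 in limma, over the 14119 probes detected in at least 1 group.

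The promoter windows of Marcksl1, Abi1 and Actn1 are shown because, with Marcks, for which no window was on hand, these are the genes that the results turn on. They are RefSeq sequences of build GRCm38.p6, with 250 bases before and 50 after the transcription start, on the strand of the gene. Marcksl1 lies at chr4:129513331-129513630 (plus strand), Abi1 at chr2:23040192-23040491 (minus strand, the first of its 2 windows) and Actn1 at chr12:80260314-80260613 (minus strand). Capitals mark the GC box GGGCGG on either strand in Marcksl1 and Actn1, and the NF-κB consensus, found by its name's usual pattern on either strand, in Abi1.
Marcksl1: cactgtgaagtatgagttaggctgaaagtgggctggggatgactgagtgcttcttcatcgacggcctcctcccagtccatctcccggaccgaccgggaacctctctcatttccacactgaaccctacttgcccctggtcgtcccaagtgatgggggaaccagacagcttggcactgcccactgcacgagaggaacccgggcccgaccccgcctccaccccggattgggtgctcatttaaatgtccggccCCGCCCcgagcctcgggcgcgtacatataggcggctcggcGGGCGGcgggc
Abi1: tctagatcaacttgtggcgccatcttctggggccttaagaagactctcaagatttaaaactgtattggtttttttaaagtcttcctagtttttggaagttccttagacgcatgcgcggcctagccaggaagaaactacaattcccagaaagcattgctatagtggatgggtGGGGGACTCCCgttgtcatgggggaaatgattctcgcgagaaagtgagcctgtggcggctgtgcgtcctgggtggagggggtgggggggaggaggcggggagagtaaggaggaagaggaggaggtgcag
Actn1: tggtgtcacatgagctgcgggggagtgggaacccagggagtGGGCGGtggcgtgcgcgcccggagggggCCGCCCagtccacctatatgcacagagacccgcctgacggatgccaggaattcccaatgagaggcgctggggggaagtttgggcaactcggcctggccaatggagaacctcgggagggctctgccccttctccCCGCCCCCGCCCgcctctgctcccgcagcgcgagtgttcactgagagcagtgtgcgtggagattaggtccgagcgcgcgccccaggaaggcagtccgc
Windows were on hand for 8 of the 10 genes. The GC box was in 8 of their 10 windows, from 7 genes, against 35.7% of all 32851 windows of this length. The NF-κB consensus was in 2 of the 10 windows, both of Abi1, against 8.46% of all windows. In the Abi1 window shown, overlapping matches to the consensus started 79 and 78 bases before the transcription start. The AP-1 site TGANTCA (7.81% of all windows) and the TATA box TATAAA (13.6%) were found in 0 of these windows on either strand, and the CArG box, the site of serum response factor (1.63%), in that of Actg1. These matches describe the letters of the windows and were not tested as binding sites.

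Marcksl1, also called MARCKS-like protein, was higher with each ligand at each time. Probe 1 of Marcksl1 read 11.35 and 11.38 with LPS at 1 h, 11.33 and 11.19 with P3C, 11.36 and 11.14 with R848, and 9.47 and 9.05 in untreated cells. At 2 h it read 12.40 and 11.52 with LPS, 11.87 and 10.70 with P3C, 11.70 and 10.87 with R848, and 9.19 and 9.06 in untreated cells. At 4 h the values were 12.02 and 11.41 with LPS, 11.38 and 11.31 with P3C, 10.99 and 11.05 with R848, and 9.00 and 9.17 in untreated cells. All 18 treated arrays lay above all 6 untreated arrays for each of the 4 Marcksl1 probes. Because the gene was chosen for this rise, its differences from untreated cells are given as a description without a test. They were 2.10 (4.30-fold, SE 0.347, n = 2 arrays a group), 2.83 and 2.63 for LPS at 1, 2 and 4 h, 2.00, 2.16 and 2.26 for P3C, and 1.99, 2.16 and 1.94 for R848. Thus most of the rise was in place at 1 h. At that time 45 of the 14119 probes had a larger rise than probe 1 with LPS, 35 with P3C and 43 with R848.

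The other Marcksl1 probes showed the same direction with smaller differences. Probe 2 differed from untreated cells by 1.97, 2.72 and 2.44 with LPS at 1, 2 and 4 h, by 1.57, 1.89 and 1.92 with P3C, and by 1.66, 1.23 and 1.79 with R848. Probe 4 differed by 1.47, 1.97 and 2.12 with LPS, by 1.12, 1.50 and 1.69 with P3C, and by 1.22, 0.85 and 1.61 with R848. Probe 3, the one under the older symbol, lay between 1.19 and 2.56. The Marcksl1 signal of untreated cells moved by 0.18 or less between times for probe 1 (0 of the 23 probes called over time in untreated cells, where 0.00708% and 0.085% of all probes were called at 2 and 4 h against 1 h, and 0 of the 23 had an unadjusted p under 0.05).

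**Figure D1:**
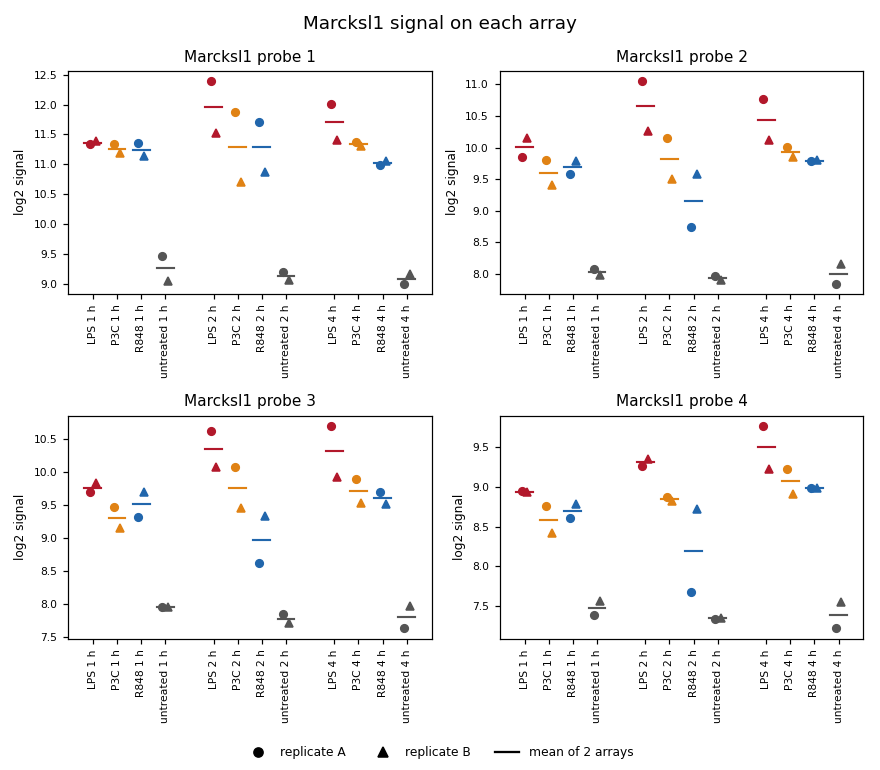
Log2 signal (vertical axis) of the 4 Marcksl1 probes on every array, by time and treatment (horizontal axis); circles are replicate A, triangles replicate B, and the line is the mean of 2 arrays. All 18 treated arrays lie above all 6 untreated arrays in each panel, and the R848 2 h arrays stand in opposite order for probe 1 and for probes 2, 3 and 4.

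For probe 1 the ligands differed less from each other than from untreated cells, which did not hold for the other probes with R848 at 2 h. Marcksl1 probe 1 was higher with LPS than with P3C by 0.10 at 1 h, 0.67 at 2 h and 0.37 at 4 h, with 95% intervals of -0.64 to 0.84, -0.07 to 1.41 and -0.37 to 1.11, none of them called. Against R848 the LPS arrays were higher by 0.12, 0.67 and 0.69, with intervals of -0.62 to 0.86, -0.07 to 1.41 and -0.05 to 1.43. R848 minus P3C was -0.01, 0.00 and -0.32 for probe 1 (intervals -0.76 to 0.73, -0.74 to 0.74 and -1.06 to 0.42). Those of LPS against each other ligand at 2 and 4 h, and that of R848 against P3C at 4 h, hold differences of 2-fold. With the slide as a random effect, Marcksl1 probe 4 was higher with LPS than with R848 at 2 h by 1.01 (adjusted p = 0.0216), beside 1.11 (adjusted p = 0.0508) without it. On the slides that held both ligands, probe 1 with LPS lay above P3C by 0.01 and 0.19 at 1 h, by 0.82 at 2 h and by 0.10 at 4 h, and above R848 by 0.65 at 2 h and 0.36 at 4 h, while at 1 h LPS minus R848 was -0.01.

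One call between ligands concerned Marcksl1. Probe 2 read 11.05 and 10.27 with LPS at 2 h, against 8.74 and 9.58 with R848, a difference of 1.50 (95% interval 0.86 to 2.14, adjusted p = 0.0199). The difference fell to 1.08 (adjusted p = 0.332) without R848 2 h replicate A and to 1.11 (adjusted p = 0.33) without LPS 2 h replicate A, and on the slide that held the B arrays of both it was 0.69. Replicate A of R848 at 2 h stood apart for Marcksl1 probes 2, 3 and 4 and for Coro1a probe 3. Probe 1 of Marcksl1 was higher there than on replicate B by 0.83, beside 0.88 with LPS and 1.17 with P3C at 2 h. Probes 2, 3 and 4 were lower there (A minus B -0.84, -0.71 and -1.06). Over all 24 arrays the correlation of probe 1 with probe 2 was 0.929, and it was 0.983 without this array. For the other genes the same array was low for Coro1a probe 3, at 9.77 against 11.34 on replicate B, and high for Actb probe 3, at 14.10 against 12.51. Actb probe 3 differed by more between replicates in some other groups and by less in the rest. Its A minus B was -2.20 with LPS at 1 h, -2.11 with P3C at 4 h and -1.68 with R848 at 1 h. At 2 h its A minus B was 0.65 with LPS and 0.95 with P3C. Without R848 2 h replicate A the differences from untreated cells with R848 at 2 h were 1.75 for Marcksl1 probe 1, 1.64 for probe 2 and 1.38 for probe 4, against 2.16, 1.23 and 0.85 with both arrays.

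**Figure D2:**
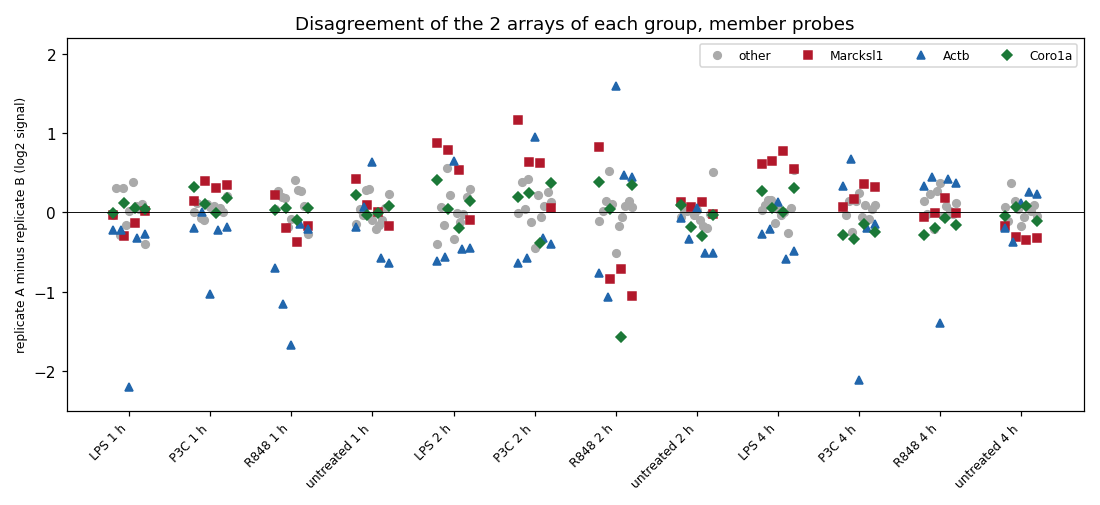
Replicate A minus replicate B in log2 signal (vertical axis) for each member probe in each of the 12 groups (horizontal axis), with Marcksl1, Actb and Coro1a marked. The R848 2 h arrays disagree by 0.83 to -1.06 over the Marcksl1 probes and by -1.57 for Coro1a probe 3.

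Marcks, the founding member of the family, rose later and by less, and mainly with LPS. Its 1 probe was detected on all arrays but was dim, between 7.02 and 7.18 in untreated cells. At 1 h it read 7.18 and 7.21 with LPS, 7.15 and 7.14 with P3C, 7.21 and 7.16 with R848, and 7.04 and 7.18 in untreated cells. At 2 h it read 7.56 and 7.96 with LPS, 7.27 and 7.28 with P3C, 7.25 and 7.36 with R848, and 7.10 and 7.15 in untreated cells. At 4 h it read 7.88 and 7.86 with LPS, 7.27 and 7.21 with P3C, 7.47 and 7.33 with R848, and 7.09 and 7.02 in untreated cells. The LPS arrays of 2 and 4 h lay above every other array of the set. With LPS, Marcks rose by 0.64 at 2 h (SE 0.0976, adjusted p = 0.000391) and by 0.82 at 4 h (1.76-fold, SE 0.0976, adjusted p = 1.43e-05), and at 1 h the difference was 0.09 (adjusted p = 0.883). In a fit of only the 2 groups compared the call at 2 h was lost (adjusted p = 0.182), while that at 4 h held. The response to LPS was larger at 4 h than at 1 h by 0.73 (95% interval 0.43 to 1.02, adjusted p = 0.00277), which was 0.42 and not called under median scaling (adjusted p = 0.162). With R848 at 4 h Marcks rose by 0.35 (adjusted p = 0.0313), a call lost without any 1 of the 4 arrays compared (0.28 to 0.42, adjusted p from 0.0543 to 0.232). With P3C the difference at 4 h was 0.19 (95% interval -0.02 to 0.39, adjusted p = 0.315). Background correction (neqc) gave 1.32 with LPS at 2 h, 1.72 with LPS at 4 h, 0.86 with R848 at 4 h and 1.48 for the change of the LPS response.

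The ligands were compared directly for Marcks. LPS was above P3C by 0.49 at 2 h (adjusted p = 0.0165) and by 0.63 at 4 h (95% interval 0.42 to 0.84, adjusted p = 0.000598), and above R848 by 0.46 at 2 h (adjusted p = 0.0345) and 0.47 at 4 h (adjusted p = 0.00866). On the slides with both ligands LPS was above P3C by 0.68 at 2 h and 0.65 at 4 h, and above R848 by 0.60 and 0.53. R848 minus P3C at 4 h was 0.16 (95% interval -0.05 to 0.37). With neqc the differences from P3C were 0.95 and 1.22 at 2 and 4 h and those from R848 0.88 and 0.86. In fits of only the 2 groups compared, only the difference from P3C at 4 h was called. The difference from P3C at 4 h stayed called without each array in turn. Under median scaling it was 0.37 (adjusted p = 0.145) at 4 h and 0.48 (adjusted p = 0.0914) at 2 h, and the difference from R848 at 4 h was 0.23 (adjusted p = 0.526). At 2 h the difference from P3C was 0.29 without LPS 2 h replicate B (adjusted p = 0.193), 0.48 without P3C 2 h replicate A (adjusted p = 0.102) and 0.49 without P3C 2 h replicate B (adjusted p = 0.113). The difference from R848 at 2 h was 0.26 without LPS 2 h replicate B (adjusted p = 0.307), 0.40 without R848 2 h replicate A (adjusted p = 0.336) and 0.51 without R848 2 h replicate B (adjusted p = 0.051). At 4 h it was 0.46 without LPS 4 h replicate A (adjusted p = 0.0727), 0.48 without LPS 4 h replicate B (adjusted p = 0.054) and 0.40 without R848 4 h replicate B (adjusted p = 0.127). Over the 23 member probes and the 9 comparisons between ligands, 5 of 207 tests were called, 4 of them for Marcks and 1 for Marcksl1. For LPS against P3C 0, 1 and 1 probes of 23 were called at 1, 2 and 4 h, where 0.184%, 1.27% and 5.39% of all probes were. For LPS against R848 the counts were 0, 2 and 1, where 0.106%, 1.04% and 4.64% of all probes were called. For R848 against P3C they were 0 at each time (0, 5 and 0 at an unadjusted p under 0.05, a level that 1.29%, 2.13% and 0.602% of all probes passed), with 0.0212%, 0.0142% and 0% over all probes.

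Abi1 encodes an adaptor of the WAVE complex, which switches on branched actin growth below the membrane. The mean signal of its probe 1 was highest at 2 h with each ligand. Abi1 probe 1 read 9.55 and 9.71 with LPS at 1 h, 9.62 and 9.51 with P3C, 9.58 and 9.76 with R848, and 9.50 and 9.20 in untreated cells. At 2 h it read 10.28 and 10.05 with LPS, 9.81 and 9.94 with P3C, 10.00 and 9.88 with R848, and 9.24 and 9.27 in untreated cells. At 4 h it read 9.73 and 9.87 with LPS, 9.83 and 9.68 with P3C, 9.92 and 9.66 with R848, and 9.46 and 9.42 in untreated cells. All 18 treated arrays lay above all 6 untreated arrays. At 2 h Abi1 probe 1 rose with each ligand, by 0.91 with LPS (1.88-fold, SE 0.117, adjusted p = 7.22e-05), 0.62 with P3C (adjusted p = 0.00454) and 0.69 with R848 (adjusted p = 0.00173). Without R848 2 h replicate A the rise with R848 was 0.63. Under median scaling these calls were lost (1.01, 0.62 and 0.46). Those with P3C and R848 were also lost in fits of only the 2 groups compared (adjusted p = 0.202 and 0.114). At 4 h the rise with LPS was 0.36 (adjusted p = 0.0381), and it was lost without any 1 of the 4 arrays (0.29 to 0.42, adjusted p from 0.0626 to 0.216) and turned to -0.07 under median scaling, where the median of all probes was -0.28. At 4 h the difference was 0.31 with P3C (adjusted p = 0.128) and 0.35 with R848 (adjusted p = 0.0747). At 1 h the differences of 0.28, 0.21 and 0.32 with LPS, P3C and R848 were not called. The second Abi1 probe differed at 2 h by 0.37 with LPS (adjusted p = 0.232), 0.18 with P3C (adjusted p = 0.702) and 0.16 with R848 (adjusted p = 0.729). At 4 h it differed by 0.45 with LPS (adjusted p = 0.0768), which was called with the slide as a random effect (0.51, adjusted p = 0.00985), and it correlated with the first at 0.605 over the 24 arrays. No pair of ligands differed for Abi1 past the threshold. LPS minus P3C at 2 h was 0.29 (95% interval 0.04 to 0.54, adjusted p = 0.607).

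Actn1 encodes alpha-actinin 1, a crosslinker of actin filaments at adhesions and stress fibres. Its single probe read 11.51 and 10.98 with LPS at 4 h, 11.41 and 11.32 with P3C, 11.45 and 11.33 with R848, and 10.62 and 10.66 in untreated cells. Every treated array thus lay above the untreated arrays of that time. At 1 h the arrays overlapped, with 10.50 and 10.90 with LPS, 10.77 and 10.56 with P3C, 10.46 and 10.74 with R848, and 11.03 and 10.79 in untreated cells. At 2 h it read 11.33 and 11.03 with LPS, 11.42 and 11.29 with P3C, 11.14 and 11.07 with R848, and 11.00 and 10.49 in untreated cells. At 4 h Actn1 rose by 0.61 with LPS (1.52-fold, SE 0.192, adjusted p = 0.0315), by 0.73 with P3C (adjusted p = 0.0254) and by 0.75 with R848 (1.68-fold, adjusted p = 0.0191). Under median scaling the 3 differences were 0.27, 0.69 and 0.65 and not called. The calls with P3C and R848 were lost without any 1 of the 4 arrays compared (0.68 to 0.78 with P3C, 0.69 to 0.81 with R848). The call with LPS was lost without LPS 4 h replicate A, where the difference was 0.34 (adjusted p = 0.322), and without untreated 4 h replicate A (0.59, adjusted p = 0.132) or B (0.63, adjusted p = 0.106). The differences at 1 h were -0.21, -0.25 and -0.31 with LPS, P3C and R848 and were not called, and that with LPS was 0.04 under median scaling. At 2 h they were 0.43, 0.61 and 0.36 and not called, although that with P3C was called with the slide as a random effect (0.67, adjusted p = 0.0292). The response to R848 changed between 1 and 4 h by 1.06 (95% interval 0.48 to 1.64, adjusted p = 0.0499), and this call was lost without each of the 8 arrays it uses (0.93 to 1.20, adjusted p from 0.0653 to 0.206). The same change was 0.82 with LPS (adjusted p = 0.0805) and 0.98 with P3C (adjusted p = 0.0918). Between ligands at 4 h Actn1 differed by -0.12 (LPS minus P3C, 95% interval -0.53 to 0.29), -0.14 (LPS minus R848, -0.55 to 0.27) and 0.02 (R848 minus P3C, -0.39 to 0.43).

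**Figure D3:**
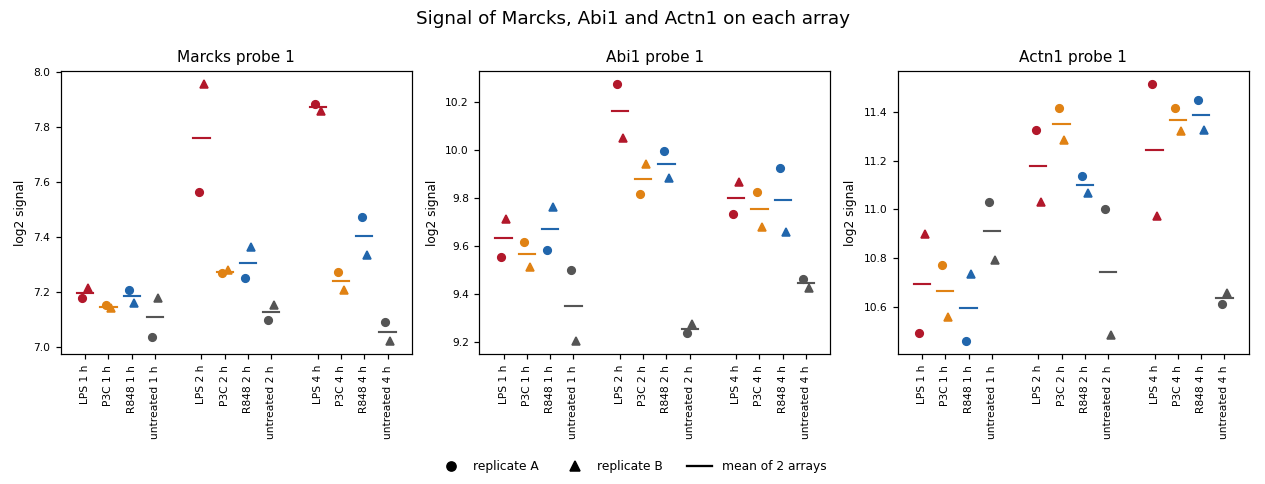
Log2 signal (vertical axis) of Marcks, Abi1 probe 1 and Actn1 on every array, by time and treatment (horizontal axis); circles are replicate A, triangles replicate B, and the line is the mean of 2 arrays. Marcks is highest on the LPS arrays of 2 and 4 h, Abi1 has its highest group means at 2 h with each ligand (the LPS difference at 4 h turns sign under median scaling), and Actn1 lies above untreated cells with each ligand at 4 h.

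For the genes other than Marcksl1, 10 of 180 tests against untreated cells were called, all 10 higher. Of their 20 probes, 0, 2 and 3 were called with LPS at 1, 2 and 4 h, against 2.86%, 10.3% and 24% of all probes. With P3C 0, 1 and 1 were called, against 2.42%, 4.84% and 9.26%, and with R848 0, 1 and 2, against 2.79%, 5.98% and 10.9%. At an unadjusted p under 0.05 the counts of the 20 at 1 h were 2 with LPS, 4 with P3C and 2 with R848, where 11.2%, 10.8% and 10.9% of all probes passed that level. The share of members called with LPS at 4 h, 15%, was thus below that of all probes, and by direction the background at 4 h was 10.7% higher and 13.3% lower for LPS, 4.92% and 4.35% for P3C, and 5.67% and 5.21% for R848. Differences above 0 at 4 h numbered 18 of 20 for LPS, 16 for P3C and 19 for R848. The 3 counts share the same 2 untreated arrays, and up to 5 of the 20 probes belong to 1 gene. The medians of the differences of the 20 were 0.25, 0.19 and 0.22, while the medians of all probes were -0.04, -0.02 and -0.02. For the change of the response between 1 and 4 h 1, 0 and 1 of the 20 were called with LPS, P3C and R848 (Marcks, none and Actn1), against 8.85%, 2.29% and 2.87% of all probes.

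Actb, the beta-actin gene often used as a reference transcript, was not called in any of 45 tests of 5 probes (5 at an unadjusted p under 0.05). Its probes did not give one picture. Probe 1 of Actb ranged over the 24 arrays only between 12.83 and 13.80, and its differences from untreated cells at 4 h were 0.36 for LPS, 0.21 for P3C and 0.18 for R848, with 95% intervals of -0.25 to 0.97, -0.40 to 0.82 and -0.42 to 0.79. Probe 3 ranged between 9.51 and 14.10. It read 9.51 and 11.71 with LPS at 1 h, 10.06 and 11.09 with P3C, 9.86 and 11.53 with R848, and 12.84 and 12.20 in untreated cells, so that all treated arrays lay below the untreated ones, yet the differences of -1.91, -1.94 and -1.82 were not called (adjusted p = 0.365, 0.369 and 0.414). At 2 h the treated and untreated arrays overlapped. At 4 h probe 3 read 12.32 and 12.19 with LPS, 11.20 and 13.31 with P3C, 11.76 and 13.15 with R848, and 11.54 and 11.42 in untreated cells, with differences of 0.78, 0.78 and 0.98 that were not called. Thus all treated arrays but 1 with P3C lay above the untreated ones at 4 h, the opposite of 1 h. With the slide as a random effect, Actb probes 4 and 5 differed at 2 h between LPS and R848, by -0.91 and -0.87 (adjusted p = 0.0248 and 0.0294), and between R848 and P3C, by 0.97 and 0.95 (adjusted p = 0.0499 for both). In a fit of only the 2 groups compared, probe 3 with LPS at 4 h was called (0.78, adjusted p = 0.00383). Probe 1 with LPS at 1 h was called under median scaling (0.71, adjusted p = 0.0412). With untreated arrays of all times pooled, probe 5 with R848 at 2 h was called (0.71, adjusted p = 0.036). The scatter between beads of a type was small on each array, with a median standard error of 2.41% of the signal for probe 3. Probes 1 and 2 of Actb correlated at 0.936 over the 24 arrays and probes 4 and 5 at 0.996, while probe 3 correlated with probe 1 at -0.211 and with probe 4 at 0.563.

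Profilin and cofilin, the products of Pfn1 and Cfl1, bind actin monomers and turn filaments over. Pfn1 probe 1 was between 12.42 and 12.94 on all 24 arrays, and Cfl1 between 7.40 and 8.09. Neither gene was called in any comparison with untreated cells (0 of 18 tests for Pfn1, 1 at an unadjusted p under 0.05, and 0 of 9 for Cfl1, 0 at that level). At 4 h Pfn1 probe 1 differed by 0.20 for LPS, 0.15 for P3C and 0.24 for R848, with 95% intervals of -0.05 to 0.45, -0.11 to 0.40 and -0.01 to 0.50. Cfl1 differed by 0.25, 0.20 and 0.31, with intervals of -0.18 to 0.68, -0.23 to 0.63 and -0.12 to 0.74. All 9 differences of Cfl1, over ligands and times, were above 0, between 0.15 and 0.33.

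Coro1a encodes coronin 1A, an actin-binding protein of leukocytes, and Capzb the beta subunit of capping protein, which closes the growing filament end. Of 36 tests for each gene 0 were called (4 each at an unadjusted p under 0.05). At 4 h Coro1a probes 2 and 4 differed by 0.25 and 0.31 with P3C (95% intervals 0.03 to 0.48 and 0.01 to 0.61, adjusted p = 0.181 and 0.218). Coro1a probe 4 differed by 0.35 with R848 (0.05 to 0.65, adjusted p = 0.141). The largest difference of the gene, -0.86 for probe 3 with R848 at 2 h, rested on the 9.77 of replicate A, beside 11.34 on replicate B and 11.27 and 11.57 in untreated cells, and was -0.07 without replicate A. Capzb differed by 0.33 or less in size for all 4 probes in each comparison, and Capzb probe 3 was the nearest to a call, at 0.25 with LPS at 4 h (95% interval 0.05 to 0.45, adjusted p = 0.0733). With the slide as a random effect this difference was called (0.27, adjusted p = 0.0319), as was Coro1a probe 2 between LPS and P3C at 4 h (-0.29, adjusted p = 0.0235).

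**Figure D4:**
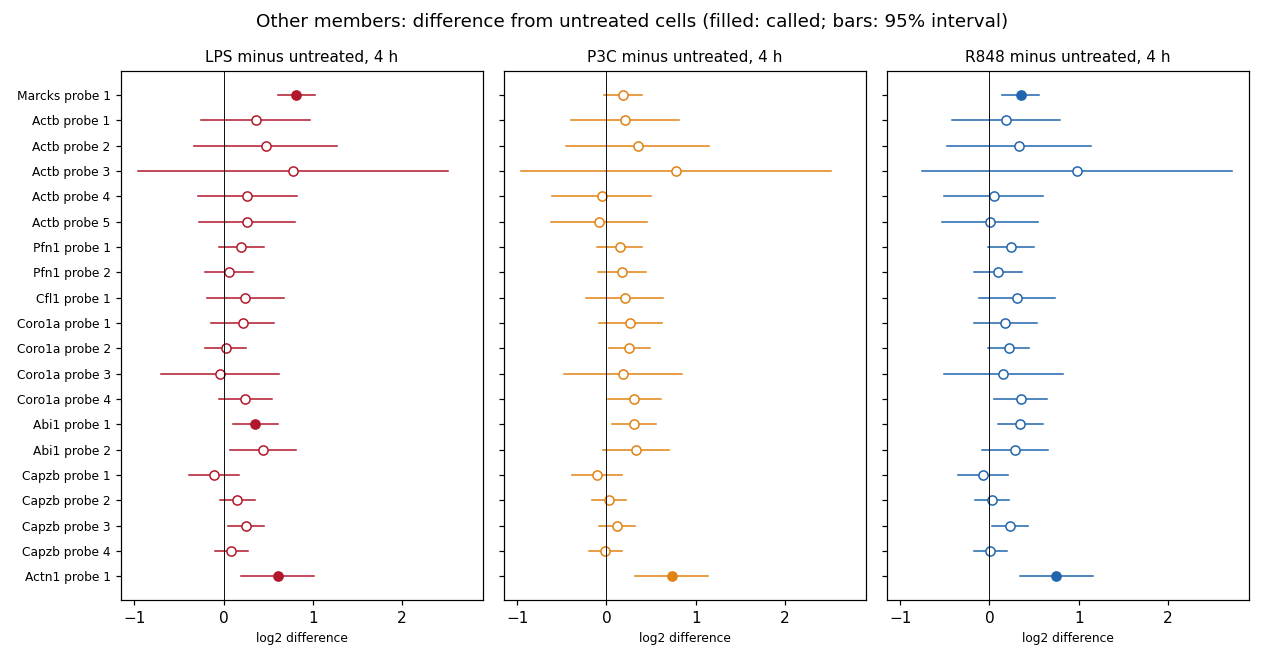
Log2 difference from untreated cells at 4 h (horizontal axis) for the 20 detected probes of the 8 genes other than Marcksl1 (rows), with LPS, P3C and R848; bars are 95% intervals, and filled points are called at an adjusted p under 0.05. With LPS 3 probes are filled (Marcks, Abi1 probe 1, which turns sign under median scaling, and Actn1), with P3C 1 (Actn1) and with R848 2 (Marcks and Actn1).

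The genes whose pattern over the 24 arrays was most like that of Marcksl1 probe 1 were sought among 8621 other genes, each by its brightest probe. They were Ehd1, an endocytic recycling ATPase (Pearson's r = 0.969), Tgm2, a transglutaminase (0.959), Tnip1, an A20-binding protein (0.957), Phlda1 (0.947) and Zc3h12a, the RNase Regnase-1 (0.946). Their differences from untreated cells were between 0.74 and 3.92 over the ligands and times, and the points share the 6 untreated arrays and the normalization. Within the members, Abi1 probe 1 correlated with Marcksl1 probe 1 at 0.785, Cfl1 at 0.662, Marcks at 0.55 and Actn1 at 0.451, and Actb probe 1 at 0.106.

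A wider list of 128 genes of the actin system in 9 roles was read beside the members, and 85 of the genes had a detected probe, 121 probes in all. At 4 h 18 probes were higher and 7 lower with LPS (14.9% and 5.79%), 12 and 4 with P3C (9.92% and 3.31%), and 13 and 4 with R848 (10.7% and 3.31%). The shares of all probes were 10.7% and 13.3%, 4.92% and 4.35%, and 5.67% and 5.21%. Under median scaling these splits were 3 and 11, 1 and 1, and 1 and 1, so that directions are relative to the other probes. Most calls of higher probes were thus lost there, and which of the genes named below kept theirs is not given. The medians of the list were 0.06, 0.09 and 0.13. The shares of all probes called without 1 of the arrays compared are not given, so the counts that follow cannot be set beside them. Without 1 of the arrays compared the counts of higher probes were 14 to 16 with LPS, 4 to 7 with P3C and 5 to 8 with R848, and those of lower probes 5 to 6, 1 to 2 and 1 to 3. Among the kinases, calmodulins and phosphoinositide enzymes that act on MARCKS, 4 of 13 probes were higher with LPS, 1 with P3C and 1 with R848, and 0 were lower. Prkcd, protein kinase C delta, was higher with LPS by 0.76 (SE 0.0911, adjusted p = 1.46e-05), with 0.28 for P3C and 0.18 for R848 not called. Pip5k1a, which makes PIP2, was higher with LPS by 1.60 and 1.16 on its 2 probes, with 0.79 and 0.57 for P3C and 0.83 and 0.67 for R848 not called. Pip5k1b, of the same family, was higher with each ligand, by 0.92, 0.71 and 0.71 with LPS, P3C and R848.

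Formins and Ena/VASP proteins lengthen unbranched filaments. Of their 11 probes 5, 4 and 4 were higher at 4 h with LPS, P3C and R848, where 10.7%, 4.92% and 5.67% of all probes were. Those higher were all from 3 genes, and 0 of the 11 were lower. Evl rose by 0.79 with LPS, 0.45 with P3C and 0.51 with R848, and Vasp by 0.49, 0.40 and 0.36. The formin Daam1 rose on 3 probes with LPS, by 0.33, 0.59 and 0.30. With P3C and with R848 the 4 higher probes also came from 3 genes, so the rise of Daam1 is not shown to be particular to LPS. Of 13 probes of crosslinkers and membrane linkers 2 were higher with each ligand. They were Zyx, zyxin of focal adhesions, at 1.39, 1.46 and 1.53, and 1 of 2 probes of Msn, the membrane linker moesin, at 0.87, 0.79 and 0.61.

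In the WAVE and WASP group 1 of 12 probes was higher and 1 lower with each ligand. Hcls1, a cortactin-like protein of blood cells, rose by 0.96, 0.77 and 0.74 with LPS, P3C and R848, while Abi3, a relative of Abi1, fell by 1.29, 0.88 and 0.83 on the log2 scale. Thus Abi1 and Abi3 moved in opposite directions at 4 h with LPS on this scale, where the rise of Abi1 turned sign under median scaling. Of the 24 probes for monomer binding, severing and capping 1 was higher and 3, 2 and 2 were lower. Wdr1, a cofilin helper, rose on 1 of 2 probes, by 0.73, 0.77 and 0.81, and both probes of Add3, a gamma-adducin, fell, by 0.99, 0.60 and 0.70 on one of them. Add1 fell by 0.30 with LPS on 1 of 3 probes. Of 17 probes of tropomyosins and non-muscle myosins 2, 1 and 1 were higher and 2, 1 and 1 lower. Myo1e rose by 1.05, 1.54 and 1.57 with LPS, P3C and R848, Myl12a by 0.56 with LPS, and Myo1f fell by 0.71 with LPS, with 0.03 and -0.02 for P3C and R848. The other lower probe, named after its values were seen, was 1 of 3 of Myl12b, at -0.48, -0.51 and -0.45. Of the 12 Arp2/3 probes 0 were higher with any ligand and 1 was lower with LPS, Arpc5l, which fell by 0.48. The transcription factor Srf was the only detected gene of its group of 4, and 0 of its 2 probes were called at 4 h. Its probes were chosen after their values were seen for a look at the earlier times, where 1 of them was higher by 0.77, 0.69 and 0.70 with LPS, P3C and R848 at 1 h (adjusted p = 0.00896, 0.0241 and 0.0204). At 2 h that probe was higher by 0.70, 0.83 and 0.68 (adjusted p = 0.00676, 0.00399 and 0.014), and the other by 0.59 with LPS (adjusted p = 0.0042) and 0.55 with P3C (adjusted p = 0.0131), with 0.41 for R848 not called.

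**Figure D5:**
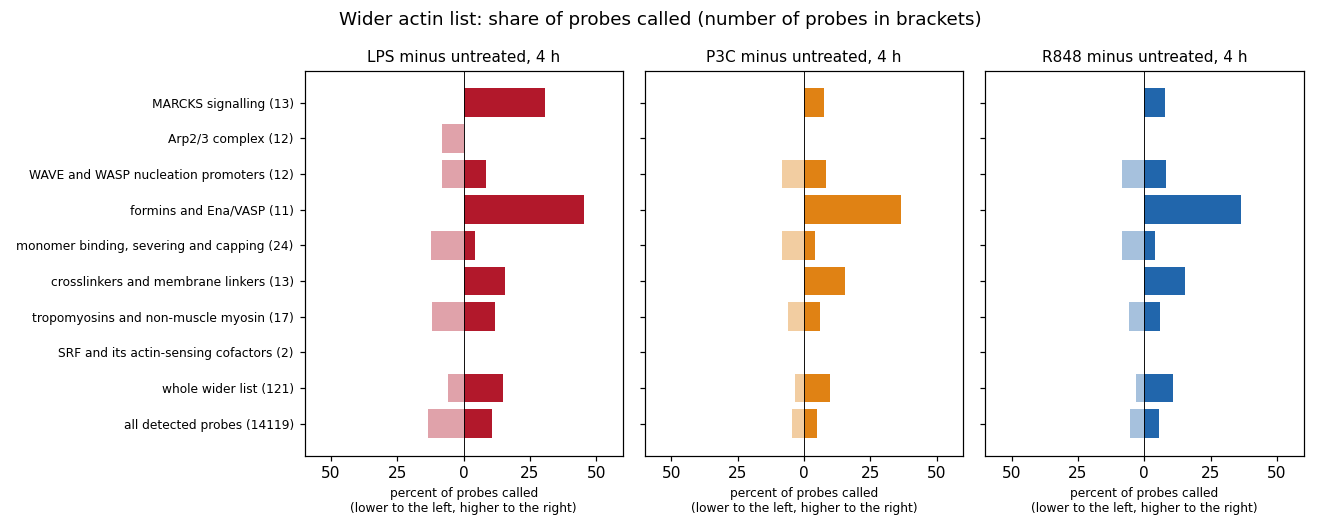
Percent of probes called at 4 h (horizontal axis, lower to the left in pale colour, higher to the right) for 8 roles of the wider actin list, the whole list and all detected probes (rows), with LPS, P3C and R848 against untreated cells. Formins and Ena/VASP have 5, 4 and 4 of 11 probes higher and 0 lower. Under median scaling the whole list of 121 probes has 3 higher and 11 lower with LPS, in place of 18 and 7. Of all probes 3.55% are then higher and 12.8% lower with LPS.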

How the data were processed

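For 24 Illumina arrays the authors deposited the raw signal intensity of 45281 probes, their bead standard error, the count of beads behind each signal, and detection p-values, per the labels from GenomeStudio 2011.1. A further deposited table held log2 signals that the authors had quantile-normalized. The methods name MouseRef-8 arrays, and the 45281 probes were used as deposited, without a check that their number matches that name. The genome build of the probes is not given in the sources used here. Here raw signals, without background correction, were put on the log2 scale and quantile-normalized, and the 14119 probes detected (p under 0.01) in duplicate in 1 group or more were kept. Group means over the 24 arrays were fitted in limma 3.58.1 (R 4.3.3), with moderated two-sided tests and Benjamini-Hochberg adjustment per comparison over all kept probes. P-values measure the spread between the 2 arrays of a group, pooled for each probe over the 12 groups. They do not rest on the groups compared alone. The fit was tested on simulated data with independent noise on each array and no slide effect. With the slide as a random effect the correlation within slides was 0.583, so the simulation says nothing of slides. Symbols came from the probe table, with 534 updated by accession. Members and lists were chosen with earlier results of these data known, so their p-values and counts of calls are not independent of that choice. Named were all members, up to 3 genes per role of the wider list with the largest called difference at 4 h, and the 5 genes most correlated with Marcksl1. The values of 1 role are not reported here. Alternatives were neqc or median scaling, values as the authors normalized them, no or a stricter detection filter, 1 probe per gene, fits limited to the groups compared, untreated arrays pooled, the replicate or the slide as a block, and each array left out. Figures were drawn with matplotlib 3.10.9 in Python 3.11.15.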

Additional observations from a re-analysis of the deposited data

Results flagged for a closer look

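Marcks differed between ligands by a direct test, with LPS above P3C by 0.49 at 2 h and 0.63 at 4 h, and above R848 by 0.46 at 2 h and 0.47 at 4 h. Under median scaling the differences from P3C were 0.48 at 2 h and 0.37 at 4 h and not called (adjusted p = 0.0914 and 0.145). That from R848 at 4 h was 0.23 and not called (adjusted p = 0.526), while that at 2 h stayed called. In fits of only the 2 groups compared, only that from P3C at 4 h stayed called. Without LPS 2 h replicate B the differences at 2 h were 0.29 from P3C and 0.26 from R848. The response of Marcks to LPS also differed between times. It was larger at 4 h than at 1 h by 0.73, a difference that was 0.42 (adjusted p = 0.162) under median scaling.

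Marcksl1 probe 2 was higher with LPS than with R848 at 2 h by 1.50, a difference that was 1.08 (adjusted p = 0.332) without R848 2 h replicate A. The response of Actn1 to R848 differed between 4 and 1 h by 1.06 (adjusted p = 0.0499). This call was lost in 11 of 16 alternative settings, over which the difference was 0.85 to 1.20. It was lost without each array it uses, in turn, and under median scaling (0.85). With neqc (1.11, adjusted p = 0.0645) and without a detection filter (1.06, adjusted p = 0.125) it was lost as well.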

How the results depend on the processing

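Of the 17 called differences of member probes, 0 were lost with the authors' normalized table, with 1 probe per gene (16 of them measured), with a random slide block or with the replicate block, 1 was lost when probes had to be detected on all 24 arrays, 2 with neqc, 8 without a detection filter, 9 in fits of only the 2 groups compared (of 15) and 14 under median scaling, where the difference of Abi1 with LPS at 4 h reversed to -0.0697. The 10 calls against untreated cells became 3 under median scaling, 5 without a detection filter and 20 with the untreated arrays of all times pooled, and 5 to 12 when arrays were left out in turn (5 without untreated 4 h replicate A or B). The 5 calls between ligands became 1 under median scaling, 3 without a detection filter, 1 in fits of only the 2 groups compared and 11 with a random slide block, and 3 to 8 when arrays were left out (3 without LPS 2 h replicate B or R848 2 h replicate A, 8 without R848 2 h replicate B). The 2 calls of a changed response became 1 with neqc, 0 under median scaling and 1 without a detection filter, and 1 to 3 when arrays were left out; the 0 calls in untreated cells over time stayed at 0 in each alternative (with the processing as reported, 0 at an unadjusted p under 0.05 in limma). In the wider list at 4 h, median scaling gave 3 higher and 11 lower probes for LPS, 1 and 1 for P3C, and 1 and 1 for R848, in place of 18 and 7, 12 and 4, and 13 and 4, and leaving out arrays gave 14 to 16 and 5 to 6, 4 to 7 and 1 to 2, and 5 to 8 and 1 to 3. Under median scaling 3.55% of all probes were higher and 12.8% lower at 4 h for LPS, 1.42% and 0.73% for P3C, and 1.67% and 1.1% for R848. The causes of these changes with the processing were not tested. Except for the wider list under median scaling, the shares of all probes called are not given beside the counts of this section. A change in a count is therefore not shown to be particular to these genes. With the letters A and B as a replicate block, calls numbered 10 against untreated cells, 7 between ligands and 2 of a changed response, and 21 higher and 9 lower in the wider list for LPS, 13 and 4 for P3C, and 14 and 4 for R848. The labels do not say what arrays of one letter share, so the letters were not taken as pairs. The correlation of A minus B between treated and untreated groups of a time was 0.0576 to 0.433, above 0.1 except with LPS at 4 h, and over all 66 pairs of groups it ran from -0.626 to 0.825. Precision is limited by 2 arrays a group, and dim probes such as Marcks, Actb probes 4 and 5 and Capzb probes 3 and 4 have low signal; the differences of Marcks were larger with neqc.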
